A study of Mus musculus with 7 samples.

Results

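The samples described here were the 3 whole tumors of the NSCHRas-shp53 glioblastoma (GBM) model, which make up 3 of the 7 bulk RNA-seq samples of the series and were chosen by their group label alone. Tumors of this model arise in adult mice from neural precursors beside the lateral ventricle (the ventricular-subventricular zone), after a lentivirus has brought in both a permanently active human *HRAS* and a hairpin RNA that knocks down *Trp53*. The labels give all 3 samples as C57BL/6 mice with GBM at an age of 3 months and do not tell them apart otherwise. All 3 carry the same virus, so none is an untreated control, and the knockdown and the oncogene are shared by every value below. RNA was taken from tumor bulk without sorting, so each library holds RNA of malignant cells and of every other cell of the dissected piece. The methods place this model in mice of both sexes that carry the *Ai14* reporter with either *Tbx18*CreERT2/+, active in mural cells, or *Tek*-Cre, active in endothelial and hematopoietic cells. Neither the genotype nor the animal behind each of the 3 samples is given in the sources used here. The samples are called libraries 1, 2 and 3, after their numbers in the labels, and every trio of values below follows that order.

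A glioblastoma is a mixture. Malignant cells, which can resemble astrocytes, oligodendrocyte precursors (OPCs) or mesenchymal cells, grow among tumor-associated macrophages and microglia, vessel walls made of endothelial and mural cells, and the neurons, oligodendrocytes and astrocytes of the brain they invade. A whole-tissue library averages over all of them, and in such a bulk library fewer cells of a type and less RNA per cell cannot be told apart. With 3 samples of 1 group there was nothing to test, so the spread between libraries is given as a description and no p-value is printed. Levels are given as CPM, counts scaled to library size with TMM factors (edgeR's scaling for library composition), and as the deposited FPKM where genes are compared with each other or where the count table cannot read a gene.

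The libraries held 18433805, 17529054 and 19840860 counts, at which 3 counts, taken as the floor, correspond to 0.181, 0.166 and 0.140 CPM. That floor covers counting error only. Of 49492 genes in the count table, 10930 reached a mean of 10 CPM, and these are called measured. Of 11072 genes wholly overlapped by other genes, 11070 are at 0 in these 3 libraries, *Gfap*, *Sox2* and *Xist* among them, and those named here were read from the FPKM values. In log2(CPM + 1) across measured genes, libraries 2 and 3 had a Pearson correlation of 0.925, libraries 1 and 2 of 0.882 and libraries 1 and 3 of 0.889. Genes are not independent replicates, so this describes likeness only. The deviation of a library from the mean of the 3 had a Spearman correlation across genes with transcript length of -0.11, -0.28 and 0.43, so library 3 leaned towards long transcripts. Its correlation with GC content was 0.15, -0.04 and -0.15. Sex-linked genes differed in kind between the libraries. *Xist*, the RNA that coats the inactive X chromosome, was at 0.00376, 0.0159 and 44.4 FPKM. *Ddx3y*, a Y-linked RNA helicase, was at 88.4, 0 and 65.7 CPM, *Uty* at 24.1, 0 and 32.0, *Kdm5d* at 32.7, 0.111 and 26.6 and *Eif2s3y* at 69.8, 0 and 71.4. Library 1 thus held Y-linked RNA and almost no *Xist*, library 2 almost none of either, and library 3 both. Whether a library held tissue of more than 1 mouse was not tested.

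The most abundant transcripts were those of iron storage, the cytoskeleton, protein synthesis and lysosomes, and most of them were high in all 3 tumors. By mean FPKM among rows with a single gene name, *Fth1*, the heavy chain of the iron store ferritin, came first at 5602, 6985 and 4651 FPKM. A row that joins *Apoe* and its neighbour *Tomm40* was higher, at 14603.5, 11087 and 7234 FPKM, and cannot be split between them. *Tmsb4x*, thymosin beta 4, which binds actin monomers, followed at 4522, 7805 and 3958 FPKM. Both were highest in library 2 and lowest in library 3. *Ftl1*, the light chain of ferritin, was at 3488, 4014 and 2059 FPKM, *Cst3*, the secreted protease inhibitor cystatin C, at 3814, 3167 and 3019.7, and *Eef1a1*, an elongation factor of translation, at 3382, 2965 and 2466. *B2m*, the light chain of MHC class I, was at 2772, 2629.9 and 2233 FPKM, *Ctsd*, the lysosomal protease cathepsin D, at 2579.6, 2008 and 2002, and the metallothionein genes *Mt1* and *Mt2*, whose products bind zinc and copper, at 2196, 2132 and 1822 and 2341, 1852 and 1852. In these rows the highest library was less than 1.5 times the lowest, apart from *Ftl1*, *Tmsb4x*, *Fth1* and the joined row of *Apoe* and *Tomm40*. Of the 50 genes with the highest FPKM of each library, 29 stood in that list in all 3 libraries, and 14 of the 29 encode ribosomal proteins. By CPM, 33 of the 50 were shared.

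Some of the most abundant genes nevertheless differed widely between tumors. *Vim*, vimentin, the intermediate filament of mesenchymal and immature glial cells, was at 1530.1, 4307 and 1872 FPKM and *Igfbp3*, a secreted binder of insulin-like growth factors, at 1145, 2699 and 1987. Both were highest in library 2. *Spp1*, osteopontin, a secreted phosphoprotein made by macrophages and by tumor cells, was at 855, 3345 and 3233 FPKM, with library 1 far below the other two. *Rps29*, a protein of the small ribosomal subunit, went the other way at 3896, 841 and 905 FPKM, and *Rps27*, of the same subunit, at 3997, 1875 and 1594. *Gfap*, the intermediate filament of astrocytes, was at 716, 789 and 1096 FPKM and *Sox2*, a transcription factor of neural stem cells, at 51.1, 111 and 62.8. *Timp1*, an inhibitor of matrix proteases, was at 325, 1265 and 909 FPKM, lowest in library 1 as *Spp1* was.

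**Figure D1:**
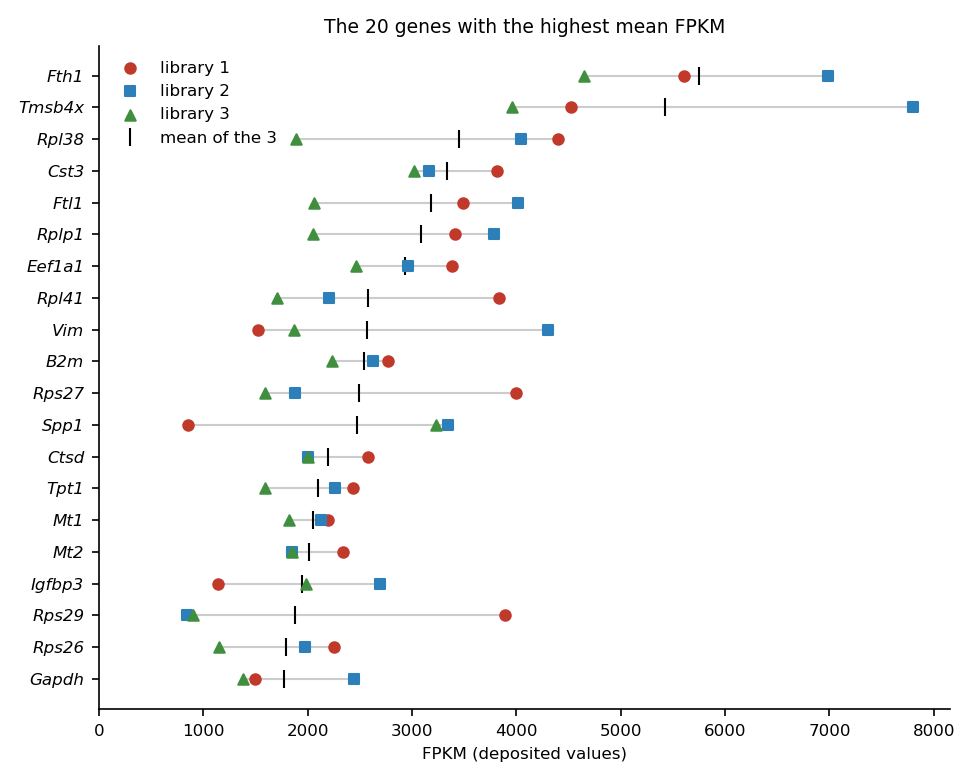
Deposited FPKM (horizontal axis, linear) of the 20 genes with the highest mean FPKM (vertical axis), rows that join several gene names left out, in libraries 1 (circle), 2 (square) and 3 (triangle), with a black bar at the mean of the 3. *Cst3*, *B2m*, *Ctsd*, *Mt1* and *Mt2* lie close together, whereas *Vim* and *Igfbp3* are highest in library 2, *Spp1* is lowest in library 1 and *Rps29* is highest there.

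Grouped into families, the transcripts encoded by the mitochondrial genome took the largest share in libraries 1 and 2, and ribosomal protein transcripts the largest in library 3. These genes, which encode subunits of the respiratory chain with the ribosomal and transfer RNAs to translate them, held 5.39, 4.19 and 1.79% of the counts. The 2 mitochondrial ribosomal RNAs differed more, with *mt-Rnr1* at 4403, 857 and 450.2 CPM and *mt-Rnr2* at 5502, 1140.5 and 660.3 CPM. Genes of cytosolic ribosomal proteins held 3.95, 3.29 and 2.40%, again most in library 1 and least in library 3. Apolipoproteins held 2.11, 1.09 and 0.893%, most of it *Apoe*, the lipid carrier made by astrocytes and by macrophages, at 21245, 8758 and 7575 CPM. Cathepsins held 0.969, 0.673 and 0.813% and ferritins 0.600, 0.727 and 0.515%. Actins held 0.431, 0.609 and 0.523%, annexins, which bind membranes in the presence of calcium, 0.142, 0.226 and 0.213% and the calcium-binding S100 proteins 0.0942, 0.166 and 0.106%. These last 3 families were lowest in library 1 and highest in library 2. Collagens held 0.325, 0.292 and 0.411%, and elongation factors 0.862, 0.761 and 0.757%. The mitochondrial share enters the total count to which all other genes are scaled, and with those genes left out and the TMM factors computed anew 40.9% of measured genes were highest in library 1, against 41.0% with them.

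Most genes varied between the tumors by far more than counting alone would give. Over the 10930 measured genes the coefficient of variation (CV, the standard deviation of the 3 libraries over their mean) had a median of 19.4%, with 6.96% at the 10th and 47.0% at the 90th percentile, against a median of 3.43% from counting error. The CV of 331 genes lay below their counting error and that of 95 genes above 100%. edgeR's common biological CV, an estimate shared by all genes, was 0.31. From the highest to the lowest library, 1982 genes, or 18.1% of those measured, differed at least 2-fold on log2(CPM + 1), and 333 genes (3.05%) at least 4-fold. Library 1 was the highest of the 3 in 41.0%, library 2 in 32.8% and library 3 in 26.2% of measured genes, and the lowest in 31.9, 33.1 and 35.0%, and these shares are the background for each list below. Among the genes that differed at least 2-fold, 57.4% were highest in library 1. That split rests on the scaling. Without TMM factors 23.7% of measured genes and 37.0% of the genes that differed at least 2-fold were highest in library 1, and the median deviation of library 1 over measured genes moved from 0.04 to -0.11 on the log2 scale. Of the 1757 genes with at least a 2-fold difference and an FPKM row, 92.7% had the same highest library in FPKM.

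The genes with the highest CV were high in a single tumor, as this measure requires over 3 libraries. A gene high in 2 libraries and low in 1 cannot reach so high a CV, so such genes are not among them. *Ttr* (transthyretin, on mm10 chromosome 18, 20665250 to 20674324), which carries thyroid hormone and retinol and is made in the choroid plexus, had 2, 2 and 9668 counts and was at 0.121, 0.111 and 451 CPM, so it lay under the floor in libraries 1 and 2. *Tac1*, the precursor of the neuropeptide substance P, at 0.663, 29.7 and 0.560 CPM and *Gpr83*, a G protein-coupled receptor of the brain, at 3.44, 70.7 and 5.46 CPM were high in library 2. *Pkp1*, a desmosomal plaque protein, at 2.41, 3.33 and 40.1 CPM and *Dgkg*, a diacylglycerol kinase, at 3.50, 4.27 and 39.7 CPM were high in library 3. The other 15 of the 20 genes were highest in library 1. They included the transcription factors *Fosb*, *Fos*, *Nr4a1*, *Nr4a3*, *Egr4* and *Atf3*, the chemokines *Cxcl2* (69.0, 6.38 and 5.18 CPM) and *Ccl4* (110.4, 7.65 and 11.6 CPM), which attract leukocytes, and *Ccrl2* (236, 7.38 and 8.86 CPM), a chemokine-binding receptor that does not signal. *Cd83*, a surface protein of activated antigen-presenting cells, was at 521, 20.5 and 25.5 CPM, *Apold1*, an early response gene of vessels, at 137, 6.82 and 5.74 CPM and *Arl5c*, a small GTPase-like protein, at 91.2, 7.60 and 7.60 CPM. *Kif5a*, *mt-Atp8* (295, 17.8 and 6.72 CPM) and the pseudogene *Gm28661* (33.9, 0.222 and 0.0466 CPM) complete the 15. *mt-Atp8* overlaps its neighbour gene, so its counts are uncertain. In all, 68 genes were at least 4 times as high in library 1 as in both others, 4 in library 2 and 10 in library 3, on log2(CPM + 1). The 4 of library 2 were *Tac1*, *Gpr83*, *Sst* (somatostatin, 5.06, 24.6 and 4.90 CPM) and *Vgf* (192, 865 and 182 CPM), a neuropeptide precursor. *Sst* and *Vgf* were named after their values were seen.

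**Figure D2:**
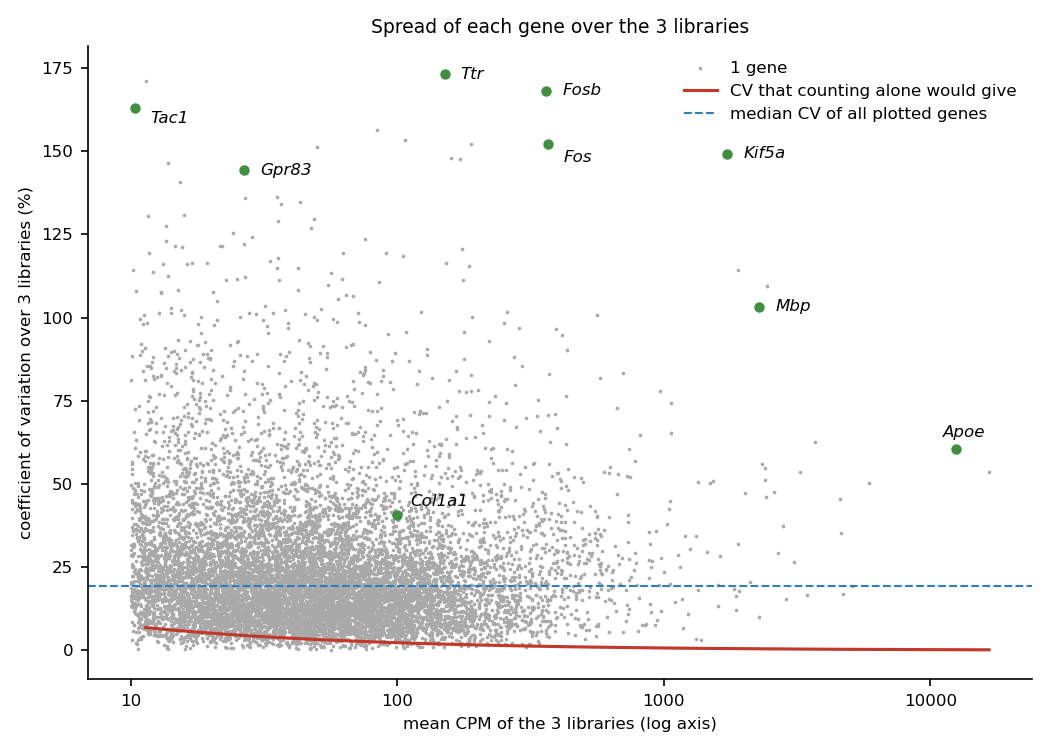
Coefficient of variation over the 3 libraries (vertical axis, %) against mean CPM (horizontal axis, log scale), with 1 point per measured gene, a solid line at the value counting alone would give and a dashed line at the median of 19.4%. *Ttr*, *Fosb*, *Tac1*, *Fos*, *Kif5a* and *Gpr83* lie at the top, far above both lines.

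At the other end, the genes of lowest CV came from basic cell functions as well as from cell division and immunity. *Vps54*, a subunit of a complex that tethers vesicles at the Golgi, was at 56.3, 56.4 and 56.3 CPM and *Trps1*, a GATA-type transcriptional repressor, at 49.6, 49.4 and 49.7 CPM. *Nars2*, a mitochondrial transfer RNA synthetase, was at 13.8, 13.7 and 13.7 CPM, *Dhdds*, which makes the dolichol carrier of protein glycosylation, at 42.3, 42.5 and 42.1 and *Wdr5*, a subunit of histone methyltransferase complexes, at 46.7, 47.4 and 46.7. *Spc25*, a kinetochore protein of dividing cells, was at 10.6, 10.7 and 10.7 CPM and *Pycard*, the adaptor of inflammasomes, at 16.7, 16.8 and 16.6 CPM. The 20 genes of lowest CV lay between 10.7 and 106 CPM on average. The CV of each of the 20 was below its counting error, so their order among themselves carries no information.

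To ask which cell-type genes moved together, 36 lists of marker and program genes were followed across the 3 libraries. They hold 745 genes, 28 of them on more than 1 list. Of these, 3 (*Tbr2*, *Ahsp* and *Chi3l1*) had no row under that name and 37 were at 0 in all 3 libraries. A further 160 had a mean under 10 CPM and 545 were measured. The 37 include genes that the count table cannot read, such as *Gfap* and *Sox2*, so a 0 is not read as absence. In 17 lists at least 66.7% of the measured members shared the same highest library, with at least 5 members measured. Library 1 led 13 of these lists, among them microglia, macrophages, vessels, the oligodendrocyte lineage, blood, MHC, complement, immediate early and cholesterol genes. Library 3 led the other 4, which were interferon response genes, collagens and matrix, fibroblasts and choroid plexus. Library 2 led none. Without TMM factors 12 of the 17 kept that share, and the lists of the unfolded protein response, OPCs, pericytes, complement and MHC class I had 9 of 21, 11 of 17, 9 of 14, 8 of 13 and 8 of 13 members highest in library 1.

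**Figure D3:**
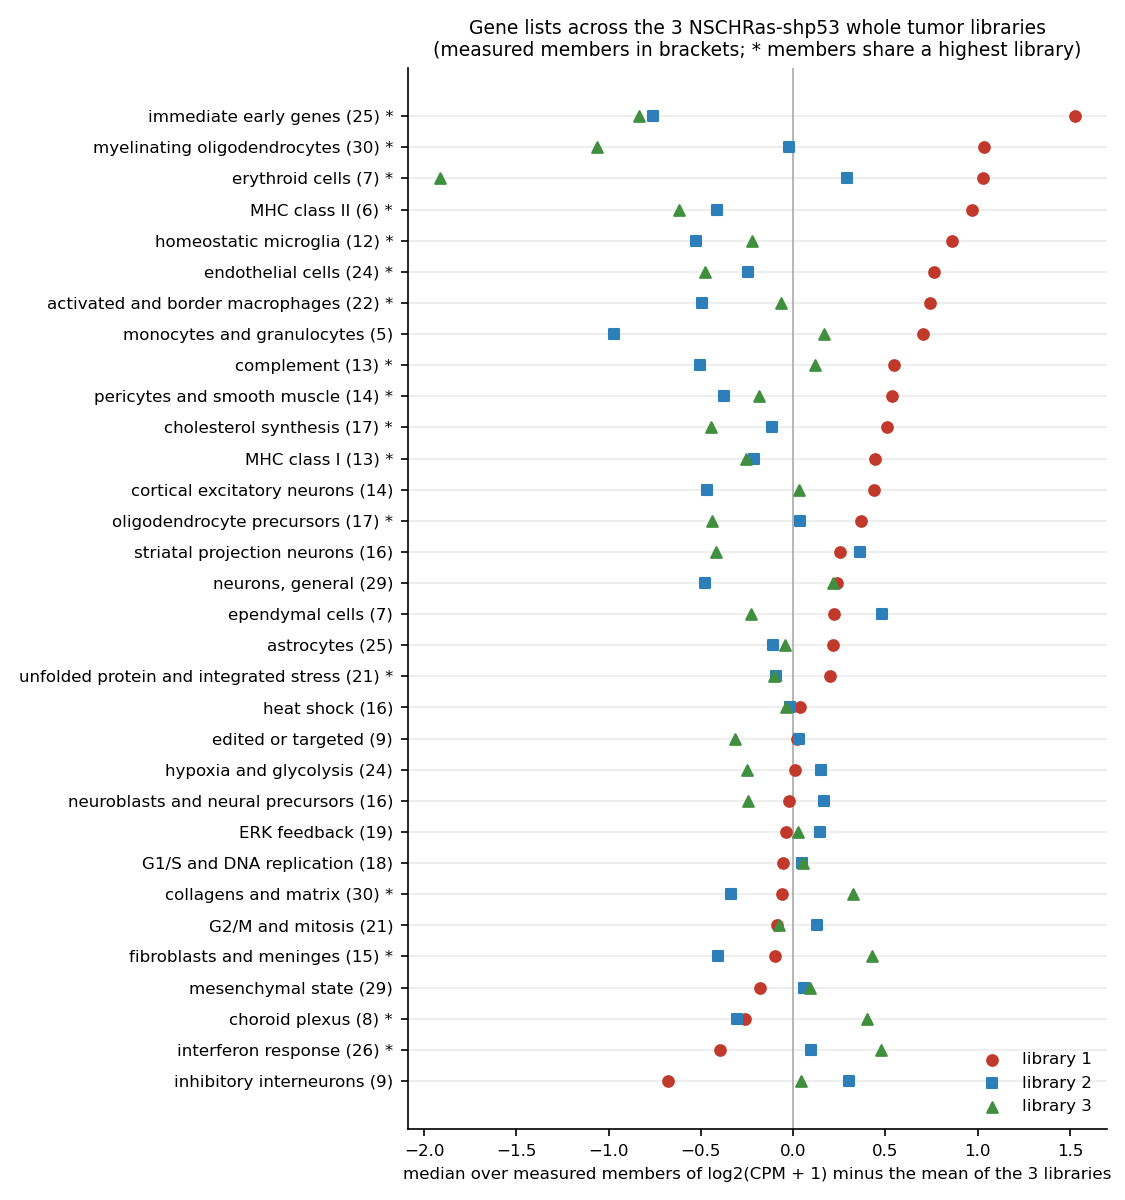
Median over the measured members of each list (vertical axis, number measured in brackets, lists with at least 5) of log2(CPM + 1) minus the mean of the 3 libraries (horizontal axis), for libraries 1 (circle), 2 (square) and 3 (triangle). An asterisk marks the 17 lists whose members share a highest library, and immediate early genes, at 1.53 in library 1, lie farthest to the right.

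Immediate early genes had the highest median deviation of library 1 of the lists with at least 5 members measured. They are transcribed within minutes of a stimulus, without new protein synthesis, and many encode transcription factors of the AP-1, EGR and NR4A families. Of 26 listed, 25 were measured, and 24 of those were highest in library 1 and 24 differed at least 2-fold, against 41.0% and 18.1% of all measured genes. The median deviations were 1.53, -0.76 and -0.84 on the log2 scale. *Fos* (mm10 chromosome 12, 85473890 to 85477273, plus strand) was at 1009.5, 57.5 and 31.6 CPM and *Fosb* (mm10 chromosome 7, 19302696 to 19310051, minus strand) at 1065, 12.5 and 8.44 CPM, and both encode partners of JUN in AP-1. Library 1 was far above the other two, which were within 2-fold of each other. *Jun* itself was at 704, 285 and 208 CPM, *Junb* at 724, 232 and 158 and *Jund* at 235, 86.0 and 41.3. *Egr1*, a zinc finger transcription factor, was at 829, 230.0 and 123 CPM, *Atf3*, a stress-induced factor of the ATF family, at 466, 21.8 and 29.1 and the nuclear receptor *Nr4a1* at 429.7, 22.4 and 23.9. Of feedback genes, *Dusp1*, a phosphatase of MAP kinases, was at 401, 64.1 and 61.8 CPM and *Zfp36*, which destabilizes cytokine mRNAs, at 434, 69.6 and 54.5 CPM. *Cyr61*, a secreted matrix protein, was at 707, 269 and 194 CPM. The exception was *Ier3*, an early gene linked to survival, at 141, 172 and 107 CPM. The count of 24 was the same under every other scaling, and all 24 members with an FPKM row were highest in the same library there. Library 2 minus library 3 had a median of 0.29.

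The promoters of the 4 members with the widest range and a RefSeq entry are shown because they carry copies of TGACG, the core of the cyclic AMP response element (CRE), to which CREB and ATF factors bind. They run over the 250 bases before the first listed start (GRCm38.p6, 5′ to 3′ on the gene's strand), with TGACG or its reverse complement in capitals. *Fosb* lies at chr7:19310046-19310295 on the minus strand, *Fos* at chr12:85473640-85473889 on the plus strand, *Atf3* at chr1:191183334-191183583 on the minus strand and *Nr4a1* at chr15:101266596-101266845 on the plus strand.
Fosb: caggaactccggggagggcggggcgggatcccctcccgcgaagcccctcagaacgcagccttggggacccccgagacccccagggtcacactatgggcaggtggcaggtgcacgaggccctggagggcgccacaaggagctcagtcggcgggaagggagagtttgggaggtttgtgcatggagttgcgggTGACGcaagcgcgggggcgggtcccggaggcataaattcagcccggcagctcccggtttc
Fos: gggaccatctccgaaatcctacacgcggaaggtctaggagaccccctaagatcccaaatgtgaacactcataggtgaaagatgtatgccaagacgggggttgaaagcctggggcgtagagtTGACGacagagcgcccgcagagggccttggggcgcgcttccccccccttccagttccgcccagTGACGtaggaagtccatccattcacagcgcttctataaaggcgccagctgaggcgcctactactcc
Atf3: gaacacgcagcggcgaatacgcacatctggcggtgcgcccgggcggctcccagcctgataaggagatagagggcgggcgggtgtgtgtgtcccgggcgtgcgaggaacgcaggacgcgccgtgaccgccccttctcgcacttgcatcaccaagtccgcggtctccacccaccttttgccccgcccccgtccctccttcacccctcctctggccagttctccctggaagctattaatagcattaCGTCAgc
Nr4a1: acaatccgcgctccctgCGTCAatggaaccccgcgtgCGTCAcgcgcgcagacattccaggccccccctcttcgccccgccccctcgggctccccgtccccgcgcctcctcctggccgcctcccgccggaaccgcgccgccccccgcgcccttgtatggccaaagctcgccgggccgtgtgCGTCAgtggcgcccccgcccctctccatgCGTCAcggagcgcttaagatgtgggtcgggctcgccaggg
Of the 24 members highest in library 1, 19 had a promoter entry, and 12 of the 19 (63.2%) held TGACG on either strand, against 17.9% of all 27025 promoters of that length. The full CRE, TGACGTCA, which contains TGACG, was in 2 of the 19 (10.5%) against 1.62% of all. The CArG box, which serum response factor binds, was in 1 of the 19 (5.26%) against 1.40%. A box farther upstream than the 250 bases searched would not be counted. A match is a run of letters and not a site of binding. The shares describe genes listed as immediate early genes and not library 1, and the promoters were not matched for base content.

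**Figure D4:**
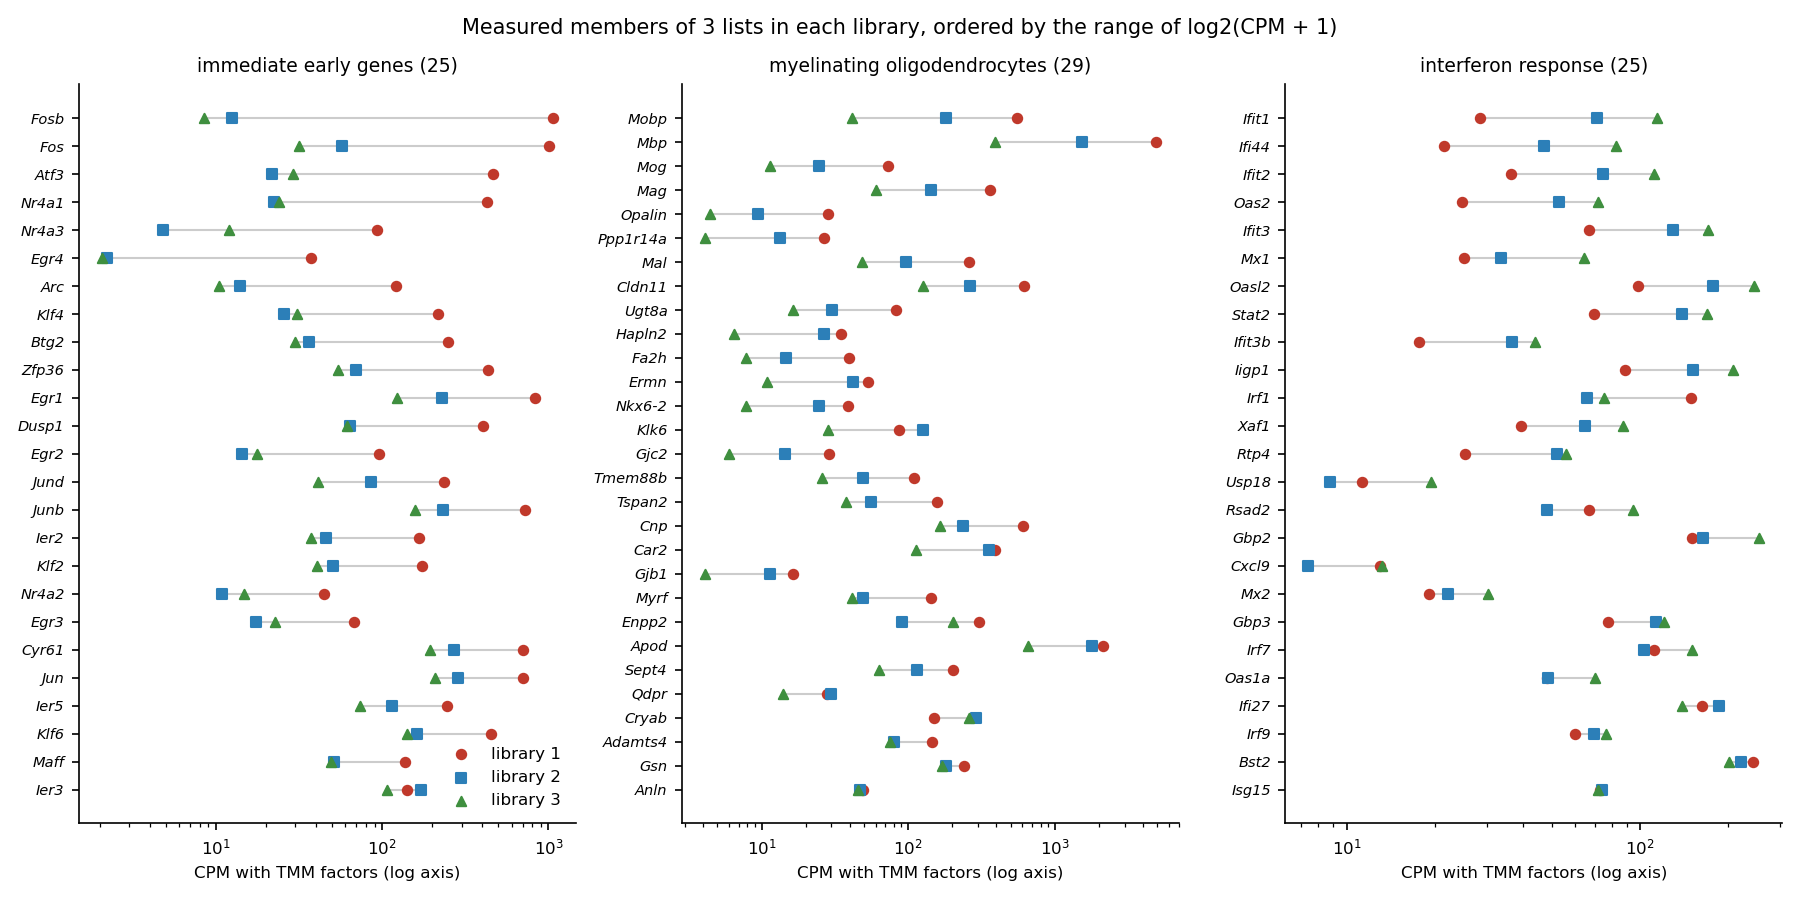
CPM with TMM factors (horizontal axes, log scale) of the measured immediate early, myelinating oligodendrocyte and interferon response genes (vertical axes), in libraries 1 (circle), 2 (square) and 3 (triangle), ordered by the range of log2(CPM + 1), with 1 myelin and 1 interferon response gene not shown. Library 1 lies on the right in 24 of the 25, 26 of the 29 and 2 of the 25 genes plotted, and library 3 on the right in 21 of the 25 interferon response genes.

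Most listed genes of microglia and macrophages, which together form the largest non-malignant population of most glioblastomas, were also highest in library 1. Of 17 microglial genes listed 12 were measured and 10 of those were highest in library 1, with median deviations of 0.86, -0.53 and -0.22. *Csf1r*, the receptor on which these cells depend, was at 1208, 283 and 502 CPM and *Fcrls*, an Fc receptor-like protein, at 362, 119 and 161. *Siglech*, a sialic acid-binding receptor of microglia, was at 59.2, 6.05 and 7.28 CPM, and *Crybb1*, a crystallin made by microglia, at 45.1, 7.93 and 4.80 CPM. *Sparc*, a matrix protein that mature microglia and many other cells express, went the other way at 1782, 3046 and 3206 CPM. With *Sparc* among them, the listed microglial genes held 0.474, 0.435 and 0.516% of all counts, without TMM factors. Of 24 genes of activated and border macrophages 22 were measured, 18 of which were highest in library 1 and 20 of which differed at least 2-fold. *Mrc1*, the mannose receptor of border macrophages, was at 151, 12.3 and 49.2 CPM, *Cd14*, the coreceptor for lipopolysaccharide, at 356, 58.2 and 41.8 and *Lyz2*, lysozyme, at 1789.9, 561 and 1668. Library 1 was highest in these 3 genes, although library 3 came close to it for *Lyz2*. The median deviations of this list were 0.74, -0.50 and -0.06. Its other measured members were highest in library 2 (1 gene) or library 3 (3 genes). *Spp1*, on the same list, was lowest in library 1, at 855, 3345 and 3233 FPKM. *C1qa*, *C1qb* and *C1qc*, which encode the chains of complement C1q, were at 1875, 662 and 667 CPM, 1416, 482 and 536 CPM and 1256, 491 and 471 CPM, with libraries 2 and 3 nearly level.

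Most genes of antigen presentation and of complement were also highest in library 1. All 6 measured MHC class II genes of 9 listed were highest in library 1, with median deviations of 0.97, -0.41 and -0.62. *Cd74*, the invariant chain, was at 1163, 479 and 534 CPM, and *H2-Ab1*, a class II beta chain, at 529.6, 163 and 135 CPM. MHC class I genes were closer together, with 10 of 13 highest in library 1 but 3 that differed at least 2-fold. *H2-D1* was at 1845, 1100.2 and 1018 CPM and *H2-K1* at 1679, 997 and 931 CPM, and these closely related class I genes can share reads. Of 13 measured complement genes, 10 were highest in library 1 and 11 lowest in library 2. *C4b*, a chain of complement component C4, was at 1306, 661 and 828 CPM and *C3ar1*, the receptor of the C3a fragment, at 171, 53.9 and 94.7 CPM. The median of library 1 minus the mean of the others was 0.82 for complement genes, and 0.48 without library 2. Of the genes that were at least 4 times as high in library 1 as in both others, some that encode cytokines and inflammatory regulators were picked after their values were seen, from no fixed list. *Tnf*, a cytokine of macrophages, was at 31.7, 4.38 and 5.27 CPM, *Il1b*, interleukin 1 beta, at 142, 20.6 and 23.6, *Osm*, oncostatin M, at 52.7, 6.54 and 6.53 and *Tnfaip3*, an inhibitor of NF-kB signaling, at 184, 14.8 and 29.0. *Ccl3* was at 84.4, 11.2 and 11.6 CPM and *Nlrp3*, the sensor of an inflammasome, at 98.0, 11.4 and 17.2 CPM. Of the 68 genes in that set 18 were on a list, and 12 of the 18 were immediate early genes.

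Genes of granulocytes and lymphocytes were mostly low in each tumor. Of 19 genes of monocytes and granulocytes 5 were measured, and the neutrophil genes *S100a8*, at 2.53, 4.10 and 1.49 CPM, and *Camp*, at 0, 0.444 and 0.140, were not among them. *Chil3*, a chitinase-like protein of alternatively activated macrophages, was at 140.2, 7.82 and 44.0 CPM and *Mmp9*, a gelatinase, at 41.2, 23.5 and 140.2, so these 2 were highest in different libraries. Of 22 T and NK cell genes 4 were measured. *Cd8a*, the coreceptor of cytotoxic T cells, was at 6.99, 6.27 and 24.5 CPM and *Cd3e*, a chain of the T cell receptor complex, at 1.87, 1.77 and 6.81 CPM, both highest in library 3, whereas *Gzmb*, the protease granzyme B, was at 29.1, 6.43 and 15.3 CPM. Of 14 B cell genes only *Ighm*, the heavy chain of IgM, was measured, at 28.0, 11.1 and 13.1 CPM. Red cell genes were highest in library 1 and lowest in library 3 for the most part. All 7 of 12 listed that were measured were highest in library 1 and 6 of them lowest in library 3. Their median of library 1 minus the mean of the others was 1.54, with 2.96 without library 2 and 0.49 without library 3. *Hbb-bs*, a beta globin, was at 149, 55.2 and 10.5 CPM and *Hba-a1*, an alpha globin, at 63.7, 56.6 and 7.32 CPM. The globin genes come in near-identical copies between which reads can be split. *Alas2* and *Slc4a1*, which mark red cell precursors, had at most 6 counts in any library.

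Myelin genes formed a gradient across the tumors. Myelinating oligodendrocytes wrap axons in a membrane rich in lipid. Of 32 genes listed 30 were measured, of which 27 were highest in library 1 and 28 lowest in library 3, and 26 differed at least 2-fold. The median deviations were 1.03, -0.02 and -1.06, and the median of library 1 minus the mean of the others was 1.55, or 1.03 without library 3. *Mbp*, myelin basic protein (mm10 chromosome 18, 82475146 to 82585637), was at 4921, 1536 and 391 CPM, and *Mobp*, another myelin protein, at 549, 183 and 41.2 CPM. *Mag*, an adhesion protein at the axon, was at 361, 143 and 60.0 CPM and *Cldn11*, the tight junction protein of myelin, at 618, 266 and 127. Library 1 was highest, library 2 stood between and library 3 was lowest in each of these. *Klk6*, a protease of oligodendrocytes, at 86.3, 126 and 28.4 CPM, *Qdpr*, which recycles a cofactor of amino acid hydroxylases, at 28.0, 29.6 and 13.9 CPM and *Cryab*, a small heat shock protein, at 150.3, 290.0 and 261 CPM did not follow the order. Nor did *Enpp2*, which is also on the choroid plexus list and was lowest in library 2. OPC genes shared the leading library but with less spread. Of 24 listed 17 were measured, of which 13 were highest in library 1, 12 lowest in library 3 and 7 at least 2-fold apart. Their median of library 1 minus the mean of the others was 0.55, with 0.84 without library 2 and 0.33 without library 3. *Olig1* was at 482, 504 and 210.3 CPM and *Olig2* at 110.1, 137 and 57.4 CPM, transcription factors of this lineage that were highest in library 2 and lowest in library 3. *Ptprz1*, a receptor phosphatase, was at 619, 481 and 345 CPM and *Bcan*, the matrix proteoglycan brevican, at 379, 215 and 123 CPM. *Tnr*, tenascin R, was at 171, 34.9 and 96.2 CPM, lowest in library 2.

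Cholesterol, the main lipid of myelin, is made in a pathway whose genes were also highest in library 1. Of 20 genes listed 17 were measured, 14 of them highest in library 1 and 13 lowest in library 3, with median deviations of 0.51, -0.12 and -0.45. *Hmgcs1*, which acts early in the pathway, was at 237, 120.4 and 73.5 CPM and *Insig1*, a sterol sensor that restrains it, at 146, 44.3 and 33.4. *Dhcr7*, which catalyses the last step, ran against them at 65.2, 113 and 115 CPM.

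Genes of the vessel wall, endothelial and mural, were mostly highest in library 1. Of 28 endothelial genes 24 were measured, of which 20 were highest in library 1 and 16 differed at least 2-fold, with median deviations of 0.76, -0.25 and -0.48. *Pecam1* (CD31), an adhesion protein of endothelial junctions, was at 149, 35.8 and 42.0 CPM, *Cldn5*, the tight junction protein of the blood-brain barrier, at 187, 81.9 and 46.8 and *Vwf*, von Willebrand factor, at 435, 139 and 201. *Erg*, an endothelial transcription factor, was at 32.6, 10.2 and 7.51 CPM and *Slc2a1*, the glucose transporter of the barrier, at 295, 91.7 and 113. Library 1 was highest in these 5 genes, with libraries 2 and 3 within 2-fold of each other. *Flt1*, a receptor of VEGF, spread less, at 382, 256 and 299 CPM, and *Plvap*, which marks leaky fenestrated vessels, was at 32.0, 34.0 and 23.1 CPM. Of 21 mural genes 14 were measured, of which 10 were highest in library 1. *Vtn*, vitronectin, was at 114, 40.4 and 37.2 CPM and *Acta2*, smooth muscle actin, at 63.0, 31.8 and 28.4 CPM, both highest in library 1, while the pericyte genes *Pdgfrb*, the PDGF receptor beta, at 63.7, 50.0 and 84.6 CPM and *Rgs5*, a regulator of G protein signaling, at 227, 173 and 288 CPM were highest in library 3. *Tbx18*, the mural cell factor behind the Cre line of the study, was at 2.47, 2.94 and 5.08 CPM.

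Interferon response genes were mostly highest in library 3 and lowest in library 1. They are induced through transcription factors of the STAT and IRF families when cells sense interferons. Of 28 listed 26 were measured, of which 22 were highest in library 3, 18 lowest in library 1 and 14 at least 2-fold apart, against 26.2% highest in library 3 among all measured genes. The median deviations were -0.39, 0.10 and 0.47. *Ifit1*, an antiviral protein that binds foreign RNA, was at 28.5, 71.3 and 114 CPM, *Ifi44* at 21.5, 46.9 and 82.7 and *Oasl2*, of the oligoadenylate synthetase family, at 98.8, 177 and 245. *Stat2*, of the first of these families, was at 69.8, 139 and 169.6 CPM and *Gbp2*, a GTPase that attacks pathogen vacuoles, at 151, 164 and 255. These genes rank library 1 lowest and library 3 highest. Against that order stood *Irf1*, a transcription factor, at 149, 66.0 and 75.2 CPM, *Bst2*, which tethers virus particles, at 242, 220.3 and 202, *Ifi27* at 163, 186 and 139 and *Isg15*, a ubiquitin-like modifier, at 73.1, 74.3 and 72.0. *Cxcl10*, a chemokine that both interferon and inflammation induce, was at 252, 116 and 123 FPKM, highest in library 1. The median of library 3 minus the mean of the others was 0.71, and 0.44 without library 1. Under the other scalings 22 or 23 members were highest in library 3.

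The promoters of *Ifit1* and *Ifit3*, among the 4 members with the widest range and a RefSeq entry, are shown because each holds a pair of matches to the interferon-stimulated response element (ISRE), searched as GAAANNGAAA on both strands and set in capitals. They cover the same 250 bases of GRCm38.p6, with *Ifit1* at chr19:34640639-34640888 on the plus strand and *Ifit3* at chr19:34583279-34583528 on the plus strand.
Ifit1: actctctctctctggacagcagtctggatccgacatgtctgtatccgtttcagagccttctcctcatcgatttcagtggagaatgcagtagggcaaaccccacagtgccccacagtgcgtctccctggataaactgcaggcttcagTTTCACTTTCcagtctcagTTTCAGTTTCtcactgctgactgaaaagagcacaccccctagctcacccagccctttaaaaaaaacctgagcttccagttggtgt
Ifit3: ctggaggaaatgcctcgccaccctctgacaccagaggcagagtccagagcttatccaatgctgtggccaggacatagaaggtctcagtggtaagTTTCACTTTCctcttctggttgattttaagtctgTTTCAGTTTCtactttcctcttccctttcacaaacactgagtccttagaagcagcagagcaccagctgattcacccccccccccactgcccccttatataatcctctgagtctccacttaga
The other two, *Ifi44* and *Ifit2*, held no match to these letters. Of the 22 members highest in library 3, 15 had a promoter entry and 8 of the 15 (53.3%) held the motif, against 3.04% of all 27025 promoters of that length. This share describes genes listed for their interferon response and not library 3, and the promoters were not matched for base content.

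Genes of the extracellular matrix and of fibroblasts were also mostly highest in library 3. Both lists hold *Col1a1*, *Col1a2*, *Col3a1*, *Col6a1* and *Col6a2*, so their counts are not independent. Of 32 collagen and matrix genes 30 were measured, of which 21 were highest in library 3 and 20 lowest in library 2, with median deviations of -0.06, -0.34 and 0.32. *Col1a1* and *Col1a2*, the chains of type I collagen, were at 98.1, 59.6 and 140.2 CPM and 142, 142 and 334 CPM. *Fn1*, fibronectin, was at 1979.8, 1593 and 3683 CPM, *Col15a1*, a basement membrane collagen, at 119, 174 and 472 and *Bgn*, the proteoglycan biglycan, at 95.2, 111 and 262. Not all matrix genes followed. *Col4a1*, of the vessel basement membrane, at 510.0, 143 and 327 CPM and *Col4a2*, its partner chain, at 314, 156 and 260.0 CPM were highest in library 1, whereas *Tnc*, tenascin C, at 1019.9, 2928 and 2125 CPM was highest in library 2. Of 20 genes of fibroblasts and meninges 15 were measured, of which 11 were highest in library 3, and *Lum*, lumican, was at 4.34, 3.55 and 23.5 CPM and *Dcn*, decorin, at 18.7, 14.5 and 64.7 CPM. Library 3 leaned towards long transcripts, and after the trends with length and GC content were removed the median of library 3 minus the mean of the others was 0.44 for the matrix list, 0.61 for fibroblasts and 0.79 for the interferon list, against 0.48, 0.64 and 0.71 before.

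*Ttr* and some other transcripts of the choroid plexus were highest in library 3. Of 20 genes listed 8 were measured, of which 7 were highest in library 3, and 5 of the 8 differed at least 2-fold. Beside *Ttr*, *Kl*, the longevity protein klotho made by this epithelium, was at 0.422, 0.0555 and 16.1 CPM, *Slc4a5*, a sodium bicarbonate transporter, at 0.904, 0.333 and 4.24 and *Folr1*, the folate receptor, at 0.181, 0.166 and 3.13. The mean CPM of these 3 was under the minimum for a measured gene. *Otx2*, its transcription factor, was at 1.27, 4.38 and 4.15 CPM, no higher in library 3 than in library 2, and *Enpp2*, autotaxin, which oligodendrocytes express as well, at 305, 91.2 and 203 CPM. *Kcnj13*, a potassium channel of this epithelium, was at 0 counts in all 3. The count table also gives 0 to genes wholly overlapped by others, so this value is not read as absence. *Tmem72*, a membrane protein, was at 46.5, 37.3 and 61.8 CPM. Ependymal cells line the ventricles next to this tissue, and 7 of their 23 listed genes were measured. Of those, 3, 4 and 0 were highest and 3, 2 and 2 were lowest in libraries 1, 2 and 3, so they shared no order. *Foxj1*, the master factor of motile cilia, was at 43.8, 42.1 and 17.0 CPM, lowest in library 3, and *Tppp3*, a tubulin-binding protein, at 63.4, 68.1 and 21.9 CPM.

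In none of the 4 neuronal lists did the members share a highest library. Of 33 general neuronal genes 29 were measured, of which 14, 6 and 9 were highest in libraries 1, 2 and 3. *Camk2a*, the calcium kinase of excitatory synapses, was at 849.9, 77.0 and 369 CPM and *Snap25*, of the vesicle fusion machinery, at 247, 75.7 and 115 CPM, whereas *Meg3*, a noncoding RNA of neurons, at 225, 604 and 538 CPM and *Gap43*, a protein of growing axons, at 195, 397 and 229 CPM were lowest in library 1. *Nefl*, the light neurofilament, was at 29.2, 135 and 139 FPKM and *Tubb3*, the neuronal tubulin, at 46.1, 81.1 and 47.7 FPKM. Of 22 genes of cortical excitatory neurons 14 were measured, of which 7, 2 and 5 were highest in libraries 1, 2 and 3 and 9 were lowest in library 2. *Slc17a7*, the vesicular glutamate transporter, was at 140.2, 17.0 and 102 CPM and *Neurod2*, a factor of cortical neurons, at 12.5, 1.89 and 21.7 CPM. Of 22 genes of striatal projection neurons 16 were measured, of which 6, 9 and 1 were highest in libraries 1, 2 and 3 and 13 were lowest in library 3. *Penk*, the enkephalin precursor, was at 18.0, 72.5 and 23.2 CPM and *Drd2*, a dopamine receptor, at 1.81, 8.04 and 0.466, under the minimum for a measured gene. Of 19 interneuron genes 9 were measured, of which 1, 4 and 4 were highest in libraries 1, 2 and 3 and 7 were lowest in library 1. *Gad2* and *Gad1*, which make GABA, were at 8.02, 69.3 and 18.1 CPM and 22.2, 62.5 and 37.6 CPM, both highest in library 2, while *Npy*, neuropeptide Y, was at 9.47, 30.9 and 58.0 CPM and *Lhx6*, a factor of cortical interneurons, at 2.59, 10.9 and 17.6 CPM.

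Astrocyte genes, which malignant glial cells can also express, had no common order. Of 28 listed 25 were measured and 6 of those differed at least 2-fold, against 18.1% of all measured genes. *Slc1a3*, a glutamate transporter, was at 1597, 1106 and 1336 CPM, *Clu*, the secreted chaperone clusterin, at 1295, 1331 and 1079 and *Aqp4*, the water channel of astrocyte endfeet, at 224, 269.9 and 256. *S100b* was the widest at 33.5, 4.22 and 8.63 CPM. Library 1 was highest in 14 of the 25, and in as few as 7 under the other scalings. Of 24 genes of neural precursors 16 were measured, with *Nes*, nestin, at 805, 837 and 935 CPM, *Fabp7*, a fatty acid-binding protein of radial glia, at 885, 1045 and 306 and *Pax6*, a neural transcription factor, at 20.1, 51.1 and 41.6.

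With TMM factors few genes of proliferation were 2-fold apart, but for G2/M genes this depended on the scaling. In the G1/S list, 18 of 28 genes were measured, 6 were highest in each library and 1 (5.56%) differed at least 2-fold. In the G2/M list, 21 of 28 were measured and 1 (4.76%) differed at least 2-fold. Among all measured genes that share was 18.1%. Without TMM factors 4 of 23 measured G2/M genes differed at least 2-fold. *Mki67*, the proliferation antigen, was at 27.8, 44.0 and 44.7 CPM, *Top2a*, topoisomerase 2, at 65.4, 70.1 and 82.9 and *Pcna*, the sliding clamp of DNA replication, at 116, 94.2 and 64.0. Of 32 genes of the mesenchymal state 29 were measured, with 7, 12 and 10 highest in libraries 1, 2 and 3. *Cd44*, the hyaluronan receptor that marks this state, was at 369, 613 and 450.0 CPM and *Fosl2*, an AP-1 factor, at 338, 107 and 139.9 CPM. Of 19 targets and inhibitors of ERK signaling, which an active RAS drives, all were measured. Of these, 5 (26.3%) differed at least 2-fold, against 18.1% of all measured genes. *Dusp6*, a phosphatase of ERK, was at 201, 337 and 316 CPM, *Spred1*, an inhibitor of RAS activation, at 319, 509 and 409 and *Ccnd1*, cyclin D1, at 569, 559 and 771. Of 26 genes of hypoxia and glycolysis 24 were measured, 13 of them highest in library 2 and 15 lowest in library 3. Those shares were 32.8% and 35.0% among all measured genes. *Vegfa*, the growth factor of vessels, was at 333, 472 and 229.6 CPM, *Car9*, a carbonic anhydrase induced by hypoxia, at 63.2, 101 and 35.2 and *Aldoa*, a glycolytic aldolase, at 898, 1277 and 839. *Car12*, a related anhydrase, was at 3.50, 5.27 and 31.0 CPM.

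Stress genes differed at least 2-fold in shares near that of all measured genes, which was 18.1%. Of 17 heat shock genes 16 were measured. Without TMM factors 4 of them differed at least 2-fold, and with these factors 2 (12.5%). The 2 genes were *Hspa1b*, the inducible HSP70, at 82.2, 18.1 and 12.8 CPM and its cochaperone *Dnajb1* at 103, 32.3 and 32.0 CPM. Both were highest in library 1. The constitutive *Hsp90ab1* was at 1407, 1328 and 1403 CPM. All 21 genes of the unfolded protein and integrated stress response were measured. Of these, 15 were highest in library 1 (9 without TMM factors) and 3 (14.3%) were at least 2-fold apart. The median deviation of library 1 was 0.20. *Hspa5*, the chaperone BiP of the endoplasmic reticulum, was at 923, 641 and 664 CPM, *Herpud1*, which helps clear misfolded proteins, at 92.8, 39.4 and 43.6 and *Calr*, calreticulin, at 921, 843 and 791. Schwann cell and muscle genes, listed as markers of tissue outside the brain, had 4 of 16 measured. *Pmp22*, a protein of peripheral myelin that other cells express as well, was at 222, 103 and 48.5 CPM.

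The targeted gene and its pathway showed a modest spread. *Trp53*, whose RNA the short hairpin targets, was at 60.6, 90.0 and 63.8 CPM, highest in library 2, and *Hras*, the endogenous mouse gene, at 57.9, 46.0 and 36.6 CPM. Whether reads of the human transgene were counted there was not tested. Of 9 edited or targeted genes of the series all were measured and only *Cdkn1a*, the p53 target p21, differed at least 2-fold, at 371, 195 and 105 CPM. *Mdm2*, another p53 target and its ubiquitin ligase, was at 153, 190.4 and 118 CPM and *Cdkn2a*, which encodes p16 and ARF, at 276, 338 and 216 CPM. With no sample free of the virus, these levels do not measure the knockdown.

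Genes with the pattern nearest to a marker were found by the distance of centred log2(CPM + 1) over the 3 libraries, a description over 3 points. Nearest to *Mbp* came *Mobp*, then *Hbb-bs*, *Gadd45b*, a growth arrest gene at 193, 46.8 and 16.2 CPM, and *Gdf15*, a stress cytokine at 94.7, 35.0 and 5.41 CPM, so a shared pattern over 3 libraries joined genes of unlike cell types. Near *C1qa* lay *Tyrobp*, a signaling adaptor of myeloid cells, at 265, 96.2 and 97.3 CPM, *Spi1*, the myeloid factor PU.1, at 179, 59.1 and 60.7 and *Itm2a*, an endothelial gene, at 87.4, 29.1 and 29.9. Near *Snap25* lay the endothelial gene *Vwf* and *Cxcl16*, a transmembrane chemokine, at 141, 44.6 and 67.3 CPM. Near *Col1a1* lay *Nrp2*, a coreceptor of semaphorins and VEGF, at 127, 75.9 and 198 CPM, *Adar*, an RNA editing enzyme induced by interferon, at 48.4, 32.4 and 71.6 and *Ccr1*, a chemokine receptor, at 32.9, 20.7 and 52.1. *Ttr* had no near neighbour, and *Pkp1* came closest at a distance of 4.29 log2 units.

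*Kif5a*, a kinesin heavy chain that carries cargo along axons, had a CV of 149% at a mean of 1728 CPM, and its neighbours did not share its values. It lies on the minus strand (mm10 chromosome 10, 127225696 to 127263363), and its level was 4704, 266 and 214 CPM, and at 611, 43.2 and 31.9 FPKM. Of 19 measured genes within 300 kb, 6 were highest in library 1 and 2 differed at least 2-fold. *Dctn2*, a dynactin subunit whose start lies 2.90 kb from that of *Kif5a*, was at 192, 166 and 160.5 CPM and *Cdk4*, the cyclin D kinase, at 177, 183 and 137 CPM. *Agap2*, a GTPase-activating protein, was at 270.0, 92.6 and 154 CPM and *Pip4k2c*, a lipid kinase, at 14.7, 6.66 and 12.4 CPM, both far below the ratio of *Kif5a*. Among other neuronal genes, *Map2*, the dendritic microtubule protein, was at 235, 146 and 247 CPM, less than 2-fold apart and highest in library 3. *Camk2n1*, an inhibitor of the kinase CaMKII, was at 1213, 264 and 208 CPM and *Rims1*, of the active zone of synapses, at 123, 20.5 and 28.3 CPM, both at least 4 times as high in library 1 as in the others. The general neuronal list summed to 8859.7 CPM in library 1, of which *Kif5a* held 4704 CPM.

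**Figure D5:**
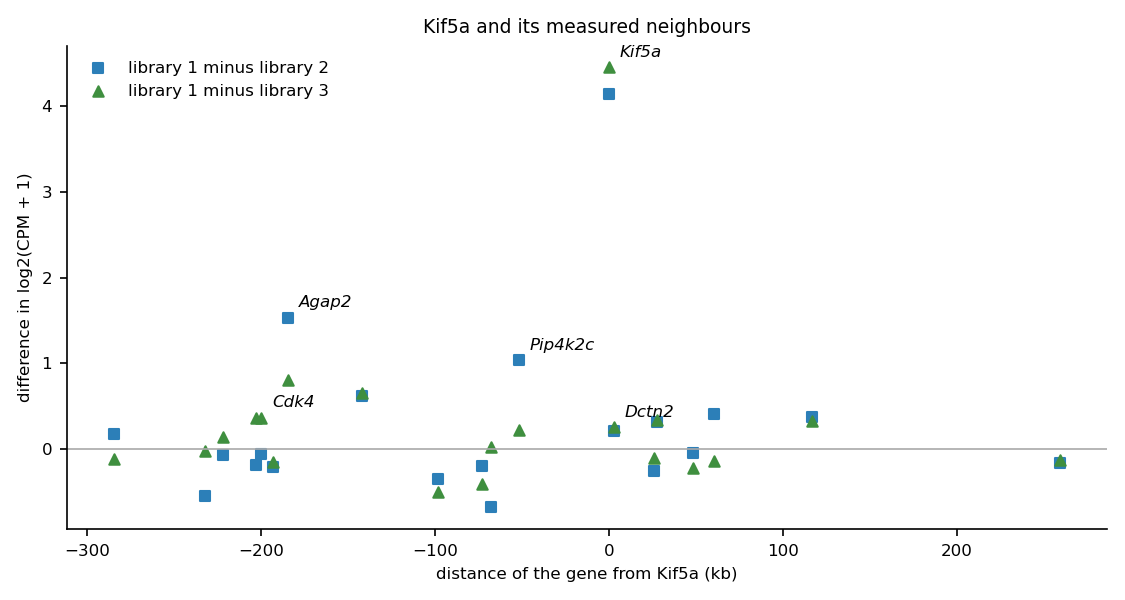
Difference in log2(CPM + 1) (vertical axis) of library 1 minus library 2 (square) and minus library 3 (triangle) for *Kif5a* and its 19 measured neighbours, by distance from *Kif5a* in kb (horizontal axis). *Kif5a* lies at 4.14 and 4.45, and every neighbour lies between -0.68 and 1.53.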

How the data were processed

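Whole-tissue RNA of 3 NSCHRas-shp53 tumors was measured by poly(A) bulk RNA-seq, with a library kit that per the labels does not keep strand. The authors trimmed reads with Cutadapt (version 1.16 per the submitters' processing notes), aligned them to mm10 with TopHat2 2.1.1 and deposited raw counts per gene, with no counting tool named, and FPKM from Cufflinks 2.2.1. In the deposited count table, 11070 of 11072 genes wholly overlapped by others are at 0 in the 3 libraries, so such genes were read as FPKM. Of 28538 FPKM rows, 925 with several gene names and 3767 with none were not used.

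The samples were grouped by their labels and only this group is described. Counts were scaled with the TMM factors of the 3 libraries (0.900, 1.03 and 1.08, edgeR 4.0.16 in R 4.3.3) to CPM, and genes with a mean of at least 10 CPM were kept. Spread was given as the CV and as the range of log2(CPM + 1), a scale on which the fold of low genes is understated. A list was said to share a highest library when at least 5 members were measured and at least 66.7% were highest in that library. No test was made, since no groups were compared. The script was tested on simulated data. The 3 libraries are separate tumors, and the labels do not name the mice. Chi-square values per degree of freedom between pairs of libraries were 108 to 211, far above sampling noise, so no library was a copy of another.

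Named genes were the 20 highest by FPKM, the 20 highest and 20 lowest by CV, the 4 highest by mean CPM and the 2 widest by ratio of each list, fixed markers, and the 10 nearest to a marker. The choice of any further gene was made with its values in view. The members and lists were chosen with earlier results of these data known. Some genes that the rule names are not reported here. Promoter sequences are from RefSeq (GRCm38.p6). Transcript length and GC content came from a GRCm38 annotation. Alternatives were DESeq2 1.42.0 size factors, TMM factors of all 7 libraries, no TMM factors, mitochondrial genes left out of the total, FPKM, other minimums, folds, measures of spread and pseudocounts, removal of length and GC trends, and leaving out each library. Mitochondrial genes left out together with no TMM factors was added after seeing the data.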

Additional observations from a re-analysis of the deposited data

How the results depend on the processing

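Of 429 medians of lists recomputed under the alternatives, 411 kept their sign, and among the 17 lists that shared a highest library 0 of 204 changed sign. The number of genes at least 2-fold apart was 1982, and it was 3304 with a mean of at least 1 CPM, 777 with at least 50 CPM, 4778 at 1.5-fold, and 587 to 1266 with a library left out (587 without library 1). All medians below are of the library that led the list minus the mean of the others. Without TMM factors they were 0.0745 for the unfolded protein response, -0.16 for T and NK cells, -0.17 for heat shock and -0.20 for the targeted genes. With mitochondrial genes left out of the total and no TMM factors, an alternative chosen after seeing the data, they were 0.11 for the unfolded protein response, -0.13 for heat shock and -0.16 for the targeted genes. In FPKM they were 1.04 for choroid plexus, 0.20 for MHC class I, 0.10 for the unfolded protein response, -0.0535 for T and NK cells and -0.23 for heat shock. With a mean of at least 1 CPM, T and NK cells were at -0.20. With at least 50 CPM, general neurons were at -0.0054, ependymal cells at -0.50, G1/S genes at 0.58 and G2/M genes at -0.0704. After removal of length and GC trends, T and NK cells were at -0.31, heat shock at -0.0142 and the unfolded protein response at 0.11. With a library left out, the medians ranged from -0.0288 (without library 1) to 1.45 for interneurons, from -0.0872 (without library 2) to 0.68 for T and NK cells, from -0.0735 (without library 2) to 0.68 for general neurons and from -0.10 (without library 3) to 0.35 for the targeted genes. Where a higher or lower minimum or a missing library moved a value, fewer or more genes or samples were used, and for the others the cause was not tested. With the SD of log2(CPM + 1) in place of the CV, 13 of the 20 most variable genes were shared. DESeq2 size factors put library 1 highest in 41.3% of genes, no TMM factors in 23.7%, mitochondrial genes left out in 40.9% (26.1% without TMM factors too) and FPKM in 34.2%. At this depth genes near 3 counts could not be ranked. No paired analysis was possible because only 1 group was described and no result came from a test.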
